A study of Mus musculus with 12 samples.

Results

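The 46 genes described here encode the enzymes and regulators of DNA replication and the E2F factors that control them. They were chosen by gene symbol from 37991 genes counted, not by a rule on their values, but with earlier results of these data known. RNA was sequenced from resting B cells of mouse spleen, before stimulation and after 3 h of culture with anti-IgM Ab, which engages the BCR, and IL-4. Cells came from Runx1 conditional knockout (c-k/o) mice, which carry floxed Runx1 alleles with the CD23-iCre transgene, and from control mice that carry the CD23-iCre transgene alone (Cre-only), all labelled as 8 weeks old. CD23 regulatory sequence drives the transgene, so its iCre follows a surface protein of maturing B cells rather than of their early precursors. The cells were enriched by negative selection that removes non-B cells and CD43+ activated B cells, and each of the 4 groups held 3 biological replicates.

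All 46 genes were matched and all 46 passed the filter on low counts, among 13538 genes tested. Totals ranged from 14442251 to 23641552 counts per sample, and the 46 genes together held 0.176% to 0.212% of them. The smallest level that 3 counts can show was 0.127 to 0.208 CPM (a count divided by its library total and rescaled), a limit that covers counting error only. Levels are given as normalized CPM, that is, CPM after TMM scaling of the libraries. They are shares of the RNA sequenced, so a change in total RNA per cell was not measured, and fewer cells with a transcript cannot be told apart from less of it in each cell. The B cell marker Cd79a was at 291 to 2410 normalized CPM, and the T cell gene Cd3e and the NK cell gene Ncr1 were at most 0.410 and 0.469, with the other T cell and NK cell genes given below. Runx1 itself was at 81.8 to 86.7 in resting Cre-only and 95.7 to 103 in resting c-k/o samples, and at 34.9 to 38.5 and 47.3 to 74.5 after 3 h; these counts cover the whole gene, not only the floxed exon, and do not check the deletion. Resting c-k/o replicate 2 and 3-h c-k/o replicate 1 stood apart from their groups on a factor of unwanted variation estimated from replicate differences, at 0.150 against 0.957 and 1.02, and at -2.08 against -0.37 and -0.56. Results that rest on them are given below with and without these 2 libraries.

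Replication is prepared in G1, when ORC, CDC6 and CDT1 load the MCM2-7 helicase on origins. In S-phase, the kinase CDC7-DBF4 and the GINS complex help to convert it into an active helicase, DNA polymerases α, δ and ε copy the strands, and the clamp PCNA, placed by replication factor C, holds the polymerases on DNA. Many of these genes are known targets of E2F factors, which RB family proteins hold inactive in quiescent lymphocytes until BCR signaling drives G1 progression.

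Promoter sequence was examined first, because E2F control of these genes is usually described through an 8-base site. In the RefSeq windows of 250 bases before to 50 after a gene's start (build GRCm38.p6), 37 of the 46 genes had at least 1 window and 9 (Mcm4, Gmnn, Gins1, Gins2, Gins4, Prim2, Pole, Rfc2 and Tipin) had none. The letters TTTCCCGC, TTTGGCGC, TTTCGCGC or TTTGCCGC, read on both strands, were in 17 of 46 windows (37.0%), against 2.26% of all 32851 windows. CCAAT was in 54.3% of the windows against 37.4% of all, CACGTG in 15.2% against 7.15%, and the RUNX letters TGTGGT or TGCGGT in 23.9% against 22.4%. These matches are descriptions of letters, not of bound sites. The 5 windows below, from 160 bases before to 20 after the start and printed 5′ to 3′ on the gene's strand, are shown because they belong to the gene with a called genotype difference (Pole2), to 3 genes that rose on activation (Mcm5, Mcm6 and Cdc25a) and to 1 that fell in Cre-only cells (Cdc6). Capitals mark the E2F letters on either strand, merged where 2 matches overlap.
Pole2, chr12:69228171-69228350, minus strand: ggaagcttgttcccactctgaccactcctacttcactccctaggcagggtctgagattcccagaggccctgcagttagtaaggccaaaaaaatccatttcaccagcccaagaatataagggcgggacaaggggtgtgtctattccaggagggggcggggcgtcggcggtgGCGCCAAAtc
Mcm5, chr8:75109349-75109528, plus strand: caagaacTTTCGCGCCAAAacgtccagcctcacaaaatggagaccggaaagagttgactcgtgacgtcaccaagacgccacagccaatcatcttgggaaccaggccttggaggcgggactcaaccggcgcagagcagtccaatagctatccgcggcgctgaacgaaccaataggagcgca
Mcm6, chr1:128359686-128359865, minus strand: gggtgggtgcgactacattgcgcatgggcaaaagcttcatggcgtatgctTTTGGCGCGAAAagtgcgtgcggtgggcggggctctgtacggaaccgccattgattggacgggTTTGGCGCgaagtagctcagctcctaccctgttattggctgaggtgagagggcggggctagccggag
Cdc25a, chr9:109875419-109875598, plus strand: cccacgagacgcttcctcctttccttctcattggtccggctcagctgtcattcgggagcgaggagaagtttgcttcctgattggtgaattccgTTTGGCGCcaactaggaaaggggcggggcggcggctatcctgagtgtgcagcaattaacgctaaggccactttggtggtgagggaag
Cdc6, chr11:98907991-98908170, plus strand: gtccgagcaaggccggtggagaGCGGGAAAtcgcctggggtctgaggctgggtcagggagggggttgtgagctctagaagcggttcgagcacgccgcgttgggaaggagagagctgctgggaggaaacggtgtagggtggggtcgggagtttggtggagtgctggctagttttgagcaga

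In Pole2 the match began 11 bases into the transcript. In Mcm6 matches began 110, 106 and 47 bases before the start, the first pair overlapping, and in Mcm5 overlapping matches began 153 and 149 bases before it. A single match began 67 bases before the start in Cdc25a and 138 before it in Cdc6. E2f2 and Pold1, which fell most on activation, also held the letters, starting at base 40 of the transcript in each. The letters were found in genes of both directions, in 9 of 17 genes with a window that rose in Cre-only cells, in 7 of 12 that fell and in 1 of 8 that did not pass the test.

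The first comparison asks how replication genes respond to 3 h of BCR stimulation. In Cre-only cells 19 of the 46 genes rose and 15 fell, and in c-k/o cells 22 rose and 12 fell (edgeR quasi-likelihood test, Benjamini-Hochberg adjusted p under 0.05 over all genes tested). Activation changed most genes: 75% of all genes tested passed in Cre-only cells (38.6% higher, 36.4% lower) and 74.3% in c-k/o cells (37.7% higher, 36.6% lower), so the 73.9% of replication genes called in either genotype lay near the background. Activated and resting samples did not overlap for 22 genes higher and 16 lower in Cre-only cells, where 84.4% of all genes tested were apart (43.8% higher, 40.6% lower), and for 22 higher and 13 lower in c-k/o cells, where 72.8% were (36.5% higher, 36.3% lower). The median log2 fold change of the 46 genes was 0.19 in Cre-only and 0.26 in c-k/o cells, against 0.03 and 0.00 over all genes. Of the 46, 18 rose in both genotypes, 11 fell in both, 0 changed in opposite directions and 7 passed in neither (Mcm4, Mcm10, Gins1, Rpa3, Slbp, Uhrf1 and E2f1). With 1 factor of unwanted variation added to the edgeR fit, 11 genes rose and 16 fell in Cre-only cells and 12 rose and 12 fell in c-k/o cells (65.5% and 63.6% of all genes tested); that factor also separated resting from 3-h samples. Without the 2 libraries that stood apart, 21 rose and 15 fell in Cre-only cells and 21 rose and 14 fell in c-k/o cells (82.1% and 77.4% of all genes tested). The factor in edgeR ended the calls of Mcm7, Dbf4, Gins4, Pola1, Pola2, Rfc4 and Fen1 in both genotypes, of Prim1, Pcna, Chaf1a and Timeless in Cre-only cells and of Cdc7, Gins2, Rfc5, Rpa2, Chaf1b and Tipin in c-k/o cells. Under every alternative run, in both genotypes, 9 genes rose (Mcm2, Mcm5, Mcm6, Gins3, Pold2, Pold3, Pole, Pole2 and Cdc25a) and 7 fell (Cdt1, Gmnn, Pold1, Rfc1, Rfc2, Rpa1 and E2f2).

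**Figure D1:**
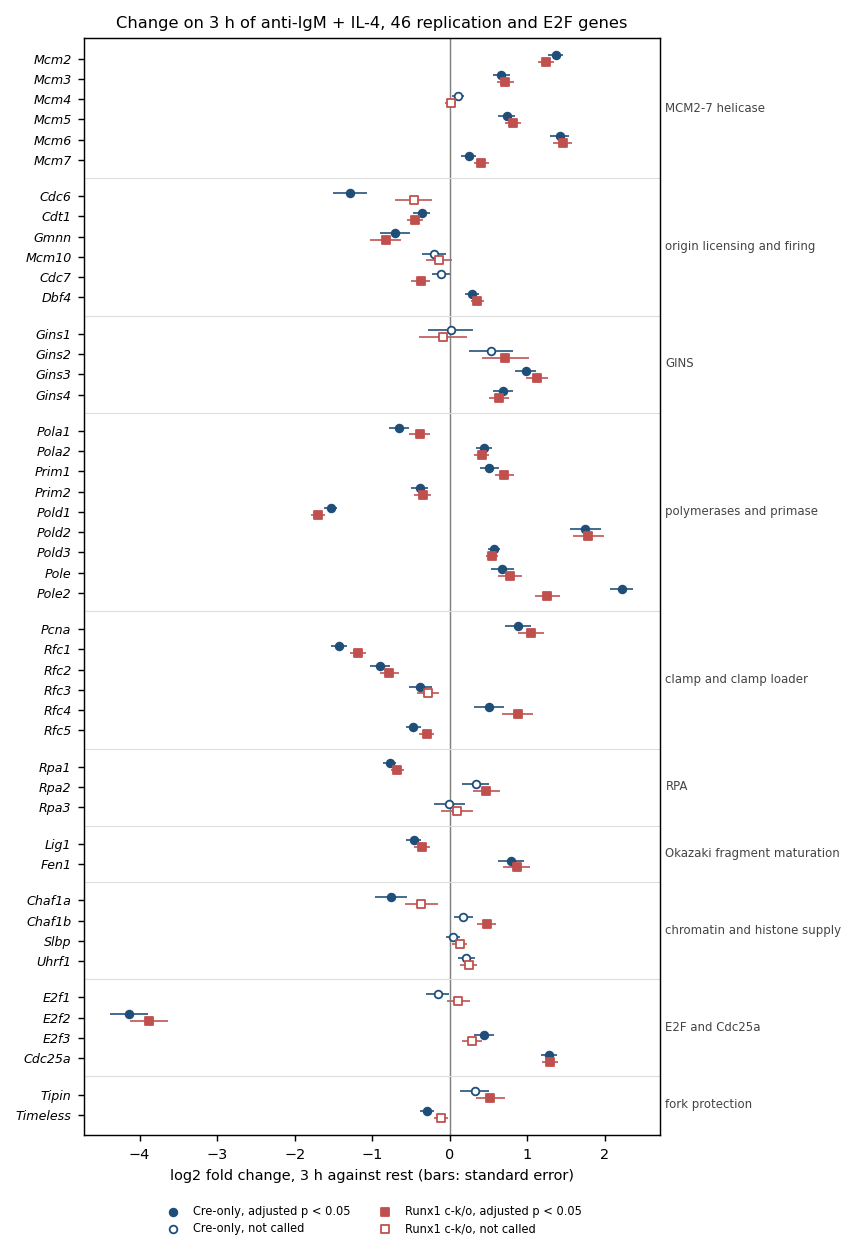
Log2 fold change on 3 h of anti-IgM + IL-4 for each of the 46 genes, grouped by role, in Cre-only (circles) and c-k/o cells (squares), with standard errors; filled symbols have an adjusted p under 0.05. The helicase and most polymerase genes lie to the right of 0, the clamp loader is split, and E2f2 lies far to the left at -4.13 and -3.88.

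Genes of the MCM2-7 helicase, the ring of 6 subunits that unwinds DNA, rose by unequal amounts or stayed level. Their log2 fold changes ran from 0.11 to 1.42 in Cre-only and from 0.01 to 1.46 in c-k/o cells. Mcm2, Mcm3, Mcm5, Mcm6 and Mcm7 rose in both genotypes (Mcm7 in Cre-only cells was called in 10 of 22 alternatives; its adjusted p was 0.0593 in edgeR with the replicate block that pairs those samples, and its direction was lost with the factor of unwanted variation), and Mcm4 did not pass in either. In Cre-only cells Mcm6 was at 75.6, 79.6 and 75.3 normalized CPM at rest and at 204, 204 and 208 after 3 h. In c-k/o cells it was at 63.0, 80.5 and 57.9 at rest and at 207, 163 and 183 after 3 h. All 6 activated samples of Mcm6 lay above all 6 resting samples, with log2 fold changes of 1.42 ± 0.12 (SE) and 1.46 ± 0.12 and adjusted p = 4.80e-07 and 4.78e-07. Mcm2 rose from 65.4, 62.9 and 61.2 to 165, 164 and 159 in Cre-only cells and from 59.7, 75.9 and 57.3 to 160, 146 and 150 in c-k/o cells, log2 fold changes of 1.36 and 1.24. The rises of Mcm5 (0.73 and 0.81), Mcm3 (0.66 and 0.72) and Mcm7 (0.24 and 0.41) were smaller. Mcm4 had log2 values of 0.11 ± 0.07 and 0.01 ± 0.07 (adjusted p = 0.202 and 0.910), and its 12 samples all lay between 60.5 and 74.1 normalized CPM.

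The subunits, which assemble in equal numbers, differed more in RNA level after activation than before. Per kb of exon, levels at rest in Cre-only cells ran from 13.7 for Mcm7 to 22.9 for Mcm3, a ratio of 1.68, and after 3 h from 16.2 for Mcm7 to 48.2 for Mcm2, a ratio of 2.99. Among c-k/o samples the same ratio was 2.05 at rest and 3.00 after 3 h. The ratio of Mcm6 to Mcm4 per kb was 0.948 ± 0.0460 (SD, n = 3) and 2.35 ± 0.0487 in resting and activated Cre-only cells, and 0.872 ± 0.169 and 2.36 ± 0.143 in c-k/o cells. Some exons of Mcm7 overlap Cops6 and Ap4m1 on the other strand, and the strand setting of the counting is not given in the sources used here.

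Genes of origin licensing and firing moved mainly the other way. Cdc6, Cdt1 and Gmnn fell in Cre-only cells and Cdt1, Gmnn and Cdc7 in c-k/o cells, while Dbf4, the activator of the CDC7 kinase, rose slightly (0.29 and 0.36 in log2; -0.01 in Cre-only cells in DESeq2 with the factor of unwanted variation). Cdt1, which brings MCM2-7 to origins, was at 116, 119 and 119 normalized CPM at rest and 89.3, 92.0 and 93.6 after 3 h in Cre-only cells. For c-k/o cells, it was at 131, 136 and 118 at rest and 112, 87.6 and 82.9 after 3 h. Cdt1 samples did not overlap between rest and activation within either genotype (log2 -0.36 and -0.45, adjusted p = 0.00808 and 0.00224). Gmnn, which encodes geminin, the inhibitor of CDT1, fell from 7.57, 8.14 and 6.20 to 4.32, 4.90 and 4.20 in Cre-only cells and from 5.56, 8.66 and 6.44 to 4.76, 3.28 and 3.59 in c-k/o cells. Its log2 fold changes were -0.71 ± 0.19 and -0.83 ± 0.20, and the groups were separate within each genotype. The rarest of the activated transcripts was Cdc6, whose product helps ORC load the helicase, with 19 to 90 counts per sample. Cdc6 fell from 4.34, 4.84 and 4.28 to 1.99, 2.16 and 1.34 in Cre-only cells (log2 -1.29 ± 0.22, adjusted p = 0.000170). In c-k/o cells it was at 2.75, 2.20 and 2.06 at rest and at 2.06, 1.25 and 1.77 after 3 h, and the change did not pass (-0.47 ± 0.24, adjusted p = 0.0933), but it did without the 2 libraries that stood apart (-0.72, adjusted p = 0.0341). The difference between the 2 genotypes in this change did not pass either (0.82 ± 0.32, adjusted p = 0.837).

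Of the GINS genes, Gins3 and Gins4 rose in both genotypes (Gins4 had 0.27 and 0.19 and did not pass in edgeR with the factor of unwanted variation), and Gins2 rose in c-k/o cells (0.72 in log2, but -0.14 with the factor of unwanted variation, and 0.57 with an adjusted p = 0.122 in edgeR without the 2 libraries that stood apart). Gins4 was at 16.9, 14.3 and 16.7 normalized CPM at rest and 26.7, 26.1 and 24.3 after 3 h in Cre-only cells, and at 14.9, 18.9 and 15.1 and then 29.9, 23.7 and 22.3 in c-k/o cells. Activated and resting samples of Gins4 did not overlap. Gins1 had log2 values of 0.01 and -0.09. Its c-k/o value was -0.58 without the 2 libraries that stood apart (adjusted p = 0.0798, edgeR) and -1.13 with the factor of unwanted variation, which passed (adjusted p = 0.0308, edgeR). Most of the exon length of Gins2 (2758 bases) overlaps Gse1 on the other strand.

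All 9 polymerase and primase genes changed on activation in both genotypes, 6 up (Pola2, Prim1, Pold2, Pold3, Pole and Pole2) and 3 down (Pola1, Prim2 and Pold1; Pola1 was at 0.03 in c-k/o cells with the factor of unwanted variation). Pold1 and Pold2, both subunits of polymerase δ, went in opposite directions. Pold1, the catalytic subunit, was at 124, 127 and 119 normalized CPM at rest and 42.3, 42.1 and 43.1 after 3 h in Cre-only cells, and at 137, 128 and 130 and then 44.8, 41.1 and 35.7 in c-k/o cells. Pold2, an accessory subunit, was at 25.8, 24.3 and 23.1 at rest and 83.8, 81.1 and 81.0 after 3 h in Cre-only cells. Among c-k/o samples Pold2 was at 22.8, 38.6 and 22.4 and then 121, 85.3 and 83.5, where the high values of 38.6 and 121 came from the 2 libraries that stood apart. Resting and activated samples of both genes were well separated. Log2 fold changes were -1.54 ± 0.09 and -1.70 ± 0.09 for Pold1 and 1.75 ± 0.20 and 1.79 ± 0.20 for Pold2, and 1.85 for Pold2 in c-k/o cells without those 2 libraries. Per kb, the ratio of Pold2 to Pold1 was 0.507 ± 0.0223 at rest and 4.94 ± 0.132 after 3 h in Cre-only cells (SD, n = 3), and 0.547 ± 0.197 and 6.07 ± 0.794 in c-k/o cells.

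Pole2, a noncatalytic subunit of polymerase ε that takes part in helicase assembly, rose more than any other of the 46 genes in Cre-only cells, from 4.29, 3.59 and 4.52 to 16.4, 18.9 and 22.4 normalized CPM (log2 2.22 ± 0.15, a 4.65-fold change, adjusted p = 8.73e-08). For c-k/o cells, it rose from 2.99, 3.88 and 3.72 to 8.5, 7.94 and 8.77 (1.25 ± 0.16, 2.39-fold, adjusted p = 1.58e-05). The activated samples of the 2 genotypes did not overlap, a difference described with the genotype comparisons below. The ratio of Pole2 to Pole, the catalytic subunit, was 1.02 ± 0.177 per kb at rest and 2.99 ± 0.586 after 3 h in Cre-only cells, and 1.25 ± 0.258 and 1.78 ± 0.419 in c-k/o cells.

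**Figure D2:**
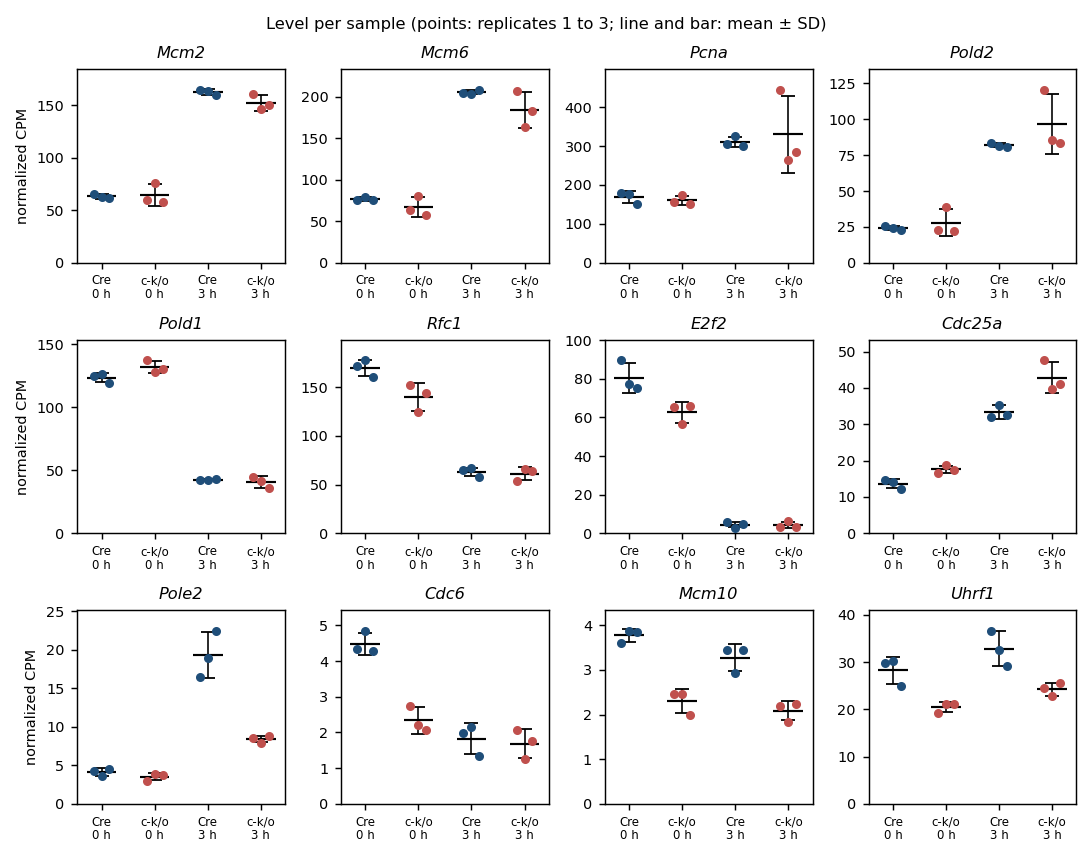
Normalized CPM of 12 of the genes in every sample, by genotype and time, with the group mean and SD; each vertical axis starts at 0. Pold1 and Pold2 exchange places on activation, E2f2 falls to 2.94 to 6.17, and for Pole2 the 3-h Cre-only points (16.4 to 22.4) stand above the 3-h c-k/o points (7.94 to 8.77).

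The clamp and its loader moved apart. Pcna, the sliding clamp and the most abundant of the 46 transcripts after 3 h, was at 179, 177 and 152 normalized CPM at rest and 305, 326 and 301 after 3 h in Cre-only cells (0.87 ± 0.17, but 0.22 with an adjusted p = 0.108 in edgeR with the factor of unwanted variation). In c-k/o cells Pcna was at 156, 174 and 152 and then 445, 264 and 284 (1.04 ± 0.17), with the highest value in the library that stood apart; without that library and resting replicate 2 the change was 0.78, and with the factor of unwanted variation it was 0.32. No activated sample overlapped a resting one. The annotation also holds 2 Pcna pseudogenes, Pcna-ps1 and Pcna-ps2, and how reads shared with them were counted is not given in the sources used here. Of the 5 loader genes only Rfc4 rose (0.51 and 0.87 in log2; -0.12 in Cre-only cells with the factor of unwanted variation). Rfc1, the large subunit, fell from 171, 177 and 161 to 64.6, 66.6 and 58.0 in Cre-only cells and from 152, 124 and 144 to 53.9, 65.9 and 64.3 in c-k/o cells (-1.43 ± 0.11 and -1.19 ± 0.10). Rfc2 fell from 68.3, 70.2 and 68.1 to 35.0, 38.9 and 36.5 and from 62.3, 67.2 and 60.4 to 46, 34.1 and 30.6 (-0.90 and -0.78). Activated samples lay below resting samples in both genotypes for Rfc1 and Rfc2. Rfc5 fell in both genotypes, and Rfc3 in Cre-only cells and, without the 2 libraries that stood apart, in c-k/o cells (-0.48). Some exon bases of Rfc4 (194) overlap Eif4a2 on the other strand, and some of Rfc5 (499) overlap Wsb2.

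The 3 genes of RPA, the single-stranded DNA binding complex, also differed. Rpa1, its large subunit, fell from 147, 141 and 134 to 82.0, 78.7 and 85.8 normalized CPM in Cre-only cells and from 124, 127 and 123 to 87.5, 74.2 and 72.4 in c-k/o cells (-0.78 ± 0.09 and -0.68 ± 0.09), without overlap. Rpa2 rose in c-k/o cells (0.47 in log2, but -0.26 with the factor of unwanted variation), and Rpa3 had -0.00 and 0.10. Without the 2 libraries that stood apart Rpa2 was called higher in both genotypes in edgeR. Its values were then 0.27 in Cre-only (adjusted p = 0.00687) and 0.24 in c-k/o cells (adjusted p = 0.0406). In c-k/o cells Rpa3 was at -0.13 without those libraries, and with the factor in edgeR it was called lower in both genotypes (-0.78 and -0.75), as was Rpa2 in Cre-only cells (-0.34, against 0.33 without the factor). The genes that finish Okazaki fragments were divided as well. Lig1, the ligase, fell from 32.8, 34.4 and 32.8 to 24.4, 24.6 and 23.4 and from 26.4, 31.9 and 25.9 to 24.3, 21.3 and 20.3, and Fen1, the flap nuclease, rose by 0.79 and 0.86 in log2 at 2.26 to 5.70 normalized CPM. Most exon bases of Fen1 (2039) overlap genes on the other strand.

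None of the 6 genes for chromatin assembly, histone supply and fork protection passed in both genotypes, though Tipin did without the 2 libraries that stood apart. Slbp, which binds histone mRNA, was the most abundant of the chromatin group, at 62.2 to 69.9 normalized CPM in the resting samples, 65.0 to 69.0 in activated Cre-only and 67.3 to 83.7 in activated c-k/o samples, and passed in neither genotype (0.04 ± 0.09 and 0.13 ± 0.09, adjusted p = 0.696 and 0.241; -0.34 in Cre-only cells, and called lower, in DESeq2 with the factor of unwanted variation). Chaf1a fell in Cre-only cells and Chaf1b rose in c-k/o cells; both belong to the histone chaperone CAF-1. Timeless fell in Cre-only cells (-0.30 in log2). Tipin, its partner at the fork, was at 20.9, 19.9 and 18.4 at rest and 23.2, 26.7 and 24.2 after 3 h in Cre-only cells and did not pass (0.32 ± 0.19, adjusted p = 0.140), but with the factor of unwanted variation it was called lower (-0.41, adjusted p = 0.0238, edgeR). Among c-k/o samples Tipin was at 16.1, 25.1 and 18.1 and then 36.9, 24.7 and 23.3. There it rose by 0.52 ± 0.19 (adjusted p = 0.0241), but had -0.24 with the factor of unwanted variation, and its groups overlapped. Without the 2 libraries that stood apart Tipin was called higher in both genotypes in edgeR. Its values were then 0.25 in Cre-only (adjusted p = 0.00965) and 0.45 in c-k/o cells (adjusted p = 0.000775).

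E2f2, an activator of the E2F family, had the largest change of the 46 genes. It was at 89.5, 77.4 and 75.0 normalized CPM in resting and 5.65, 2.94 and 4.97 in activated Cre-only cells. For c-k/o cells, E2f2 was at 65.3, 56.5 and 66 and then 3.22, 6.17 and 3.42. Every activated sample was below every resting sample, with log2 fold changes of -4.13 ± 0.24 and -3.88 ± 0.25 (adjusted p = 3.43e-08 and 7.04e-08). The other activators moved little: E2f3 rose in Cre-only cells from 18.9, 16.6 and 16.5 to 20.2, 26.8 and 23.8 (0.44 ± 0.13, adjusted p = 0.00775), and E2f1 had -0.16 ± 0.14 and 0.11 ± 0.15 (adjusted p = 0.335 and 0.520; -0.55 in Cre-only cells, and called lower, with the factor of unwanted variation in edgeR). In c-k/o cells E2f3 was at 19.9, 19.2 and 18.2 and then 22.1, 20.9 and 26.9 (0.29 ± 0.13, adjusted p = 0.0600). E2f2 went from the highest of the 3 per kb at rest to the lowest after 3 h: the ratio of E2f3 to E2f2 per kb was 0.219 ± 0.00421 in resting and 5.93 ± 2.98 in activated Cre-only cells, and 0.313 ± 0.0324 and 6.16 ± 2.39 in c-k/o cells. Cdc25a, a phosphatase that activates CDK2 at the entry to S-phase, rose from 14.6, 14.2 and 12.3 to 32.0, 35.4 and 32.7 and from 16.6, 18.7 and 17.4 to 47.6, 39.8 and 41.2 (1.28 ± 0.10 and 1.29 ± 0.10).

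**Figure D3:**
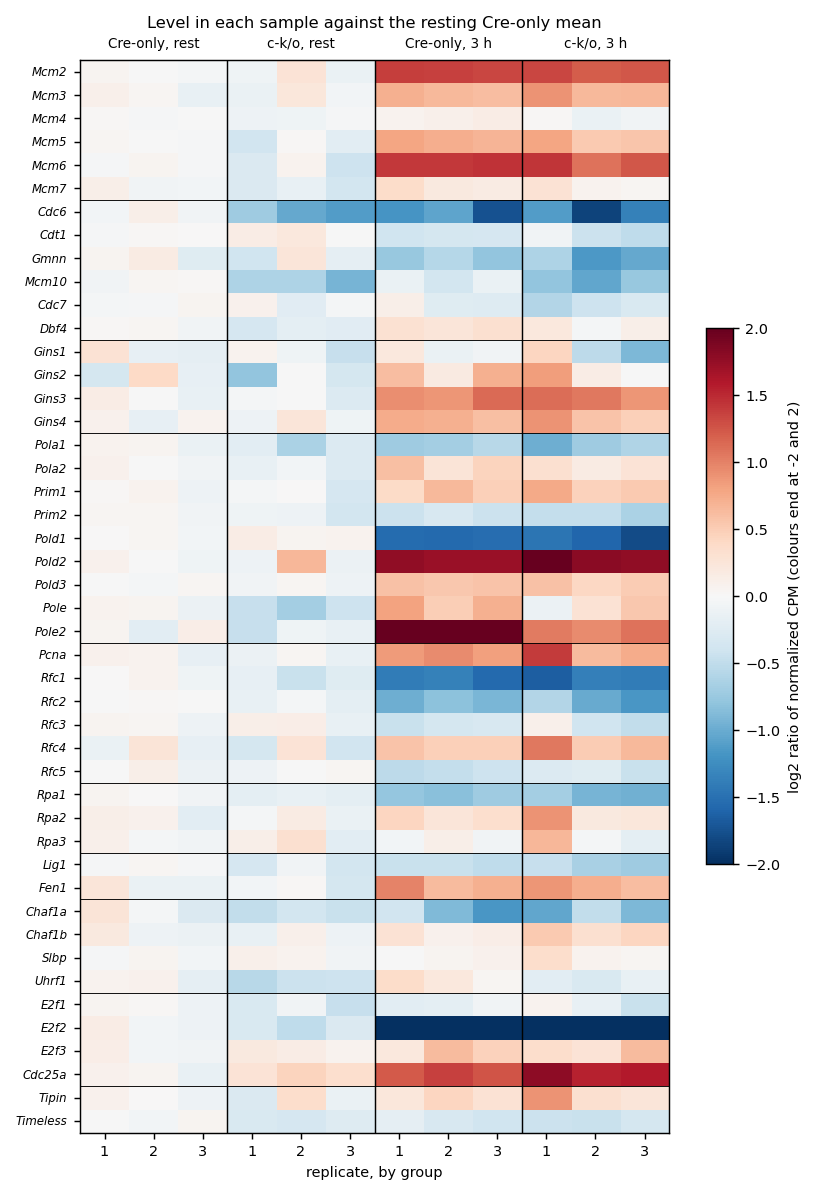
Level of each of the 46 genes (rows, by role) in each of the 12 samples (columns, by group and replicate) as a log2 ratio to the resting Cre-only mean; colours end at -2 and 2. The columns change together between rest and 3 h. The genes for which 3-h c-k/o replicate 1 is the highest of its group include the 6 MCM2-7 genes, Pcna, Pold2, Rfc4, Rpa2, Rpa3 and Tipin. Its sum over the 46 genes is 2400 normalized CPM, against 1920 and 1970 in the other replicates.

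The second comparison asks whether cells without Runx1 differ at rest. None of the 46 genes passed (0 higher, 0 lower), where 1.49% of all genes tested passed (0.731% higher, 0.761% lower) and 23.7% did not overlap between genotypes. At an unadjusted p under 0.05 (edgeR) were 11 of the 46 genes, against 1496 of all 13538 genes tested. The fitted difference was below 0 for 34 of the 46 genes, against 6009 of all 13538 genes tested. The median log2 of the 46 genes was -0.12, against 0.03 over all genes, and ran from -0.19 to -0.06 with each sample left out in turn. In 15 genes (32.6%) all c-k/o samples lay below all Cre-only samples, against 11.6% of all genes tested, and in 2 (Pold1 and Cdc25a) all lay above, against 12% of all genes. DESeq2 called 2 genes lower (Cdc6 and Uhrf1; 2.79% of all genes passed), edgeR with the factor of unwanted variation called 7 lower (Cdc6, Mcm10, Uhrf1, Dbf4, Pole, Mcm7 and Lig1) and 1 higher (Cdc25a; 3.87% of all genes), and the fit without the 2 libraries that stood apart called 9 lower (Cdc6, Mcm10, Uhrf1, Dbf4, Pole, Mcm7, Lig1, Mcm5 and Mcm6), when 4.40% of all genes passed. Without 3-h c-k/o replicate 1, which belongs to neither resting group and enters through the shared scaling and spread, 4 genes were called lower (Cdc6, Mcm10, Uhrf1 and Pole; 2.86% of all genes), and without 3-h c-k/o replicate 2 only Cdc6 (1.53% of all genes).

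The genes nearest to the threshold at rest, named after their values were seen, were Mcm10, Cdc6 and Uhrf1. Cdc6 was at 4.34, 4.84 and 4.28 normalized CPM in Cre-only and 2.75, 2.20 and 2.06 in c-k/o cells (-0.93 ± 0.22, adjusted p = 0.0599; 8 of 21 alternatives called it). Mcm10, a replication initiation factor, was at 3.61, 3.87 and 3.84 and at 2.46, 2.46 and 1.99 (-0.71 ± 0.16, adjusted p = 0.0552; 4 of 21). Uhrf1, which guides maintenance methylation of new DNA, was at 29.7, 30.2 and 25.0 and at 19.3, 21.1 and 21.2 (-0.47 ± 0.11, adjusted p = 0.0666; 6 of 21). For all 3 genes the resting groups did not overlap. Over all 21 alternatives, whether they called the gene or not, the log2 values were at most -0.85 for Cdc6, -0.62 for Mcm10 and -0.42 for Uhrf1. Of the genes with large changes on activation, E2f2 had -0.37 ± 0.20, Rfc1 -0.28 ± 0.10 and Pold1 0.09 ± 0.08 between genotypes at rest (adjusted p = 0.561, 0.297 and 0.701).

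After 3 h, 1 of the 46 genes differed between genotypes (2.17%, against 2.77% of all genes tested, 1.47% higher and 1.3% lower). Pole2 was at 16.4, 18.9 and 22.4 normalized CPM in Cre-only cells and at 8.5, 7.94 and 8.77 in c-k/o cells, 2.29-fold lower (log2 -1.19 ± 0.14, adjusted p = 0.000708). The 3 samples without Runx1 lay close together, below the lowest control sample. Pole2 was called lower in all 21 alternatives, with log2 values from -1.30 to -1.07. At rest, Pole2 samples of the 2 genotypes overlapped (-0.23 ± 0.17, adjusted p = 0.652). The test of the difference in response to activation gave -0.96 ± 0.22 for Pole2, with an unadjusted p of 0.000923 and an adjusted p of 0.236, so it did not pass; it passed in 1 of 21 alternatives, DESeq2 with the factor of unwanted variation. Pole2 (ENSMUSG00000020974; mm9 chr12:70302766-70329177, minus strand) has no exon that overlaps another gene in the annotation used.

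**Figure D4:**
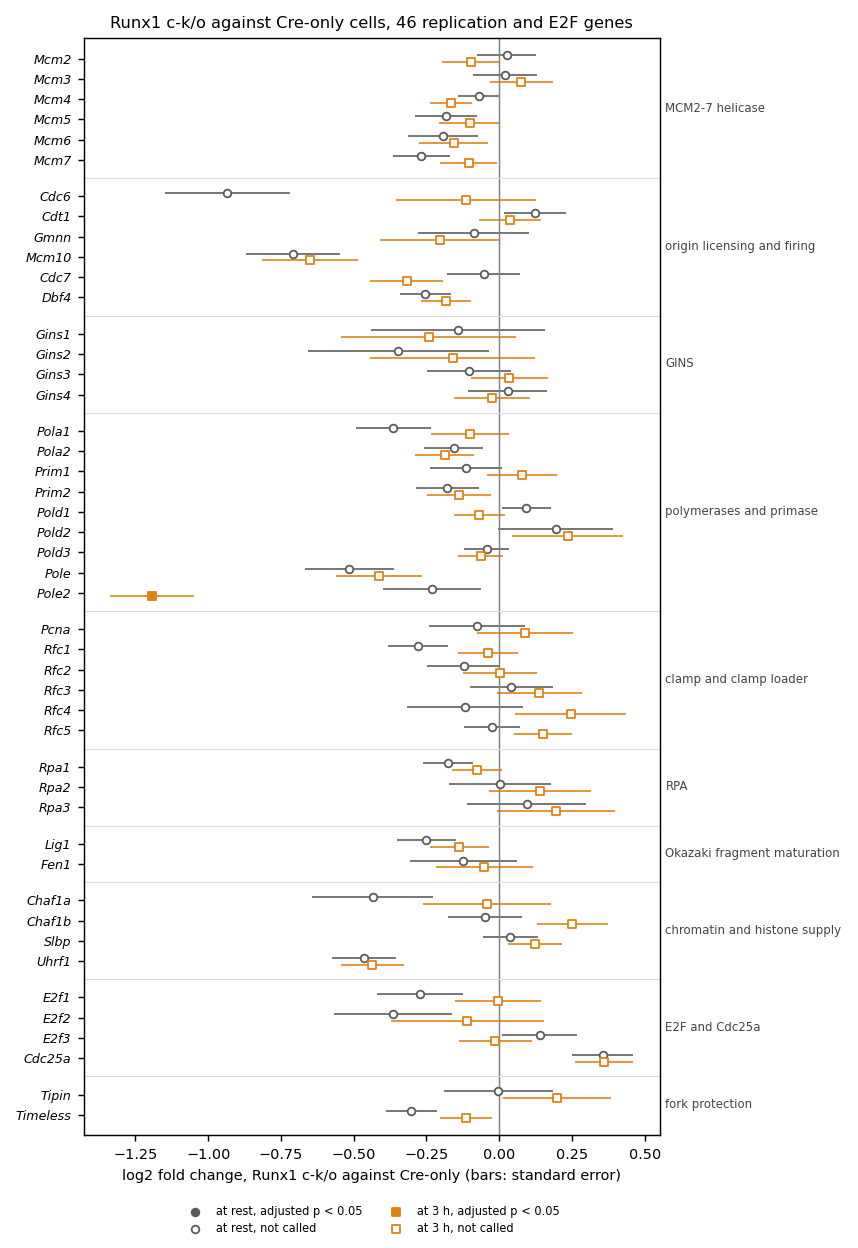
Log2 fold change between genotypes (c-k/o relative to Cre-only) for each of the 46 genes at rest (circles) and after 3 h (squares), with standard errors; filled symbols have an adjusted p under 0.05. Most points lie left of 0, and the 1 filled symbol is Pole2 after 3 h at -1.19.

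The other 45 genes did not pass after 3 h. An unadjusted p under 0.05 (edgeR) was found for 7 of the 46 genes, against 2194 of all 13538 genes tested. The median log2 of the 46 was -0.07 against 0.01 over all genes. The median of the 46 genes ran from -0.11 to 0.005 with each sample left out in turn. c-k/o samples lay below all Cre-only samples for 7 genes (15.2%, against 12.3% of all genes tested) and above them for 2 (Chaf1b and Cdc25a; 9.5% of all genes, and 21.8% either way). Mcm10 was at 3.45, 2.94 and 3.44 against 2.19, 1.84 and 2.24 (-0.65 ± 0.16, adjusted p = 0.0613), and Uhrf1 at 36.6, 32.6 and 29.2 against 24.5, 22.8 and 25.5 (-0.44 ± 0.11, adjusted p = 0.0557). Neither passed, though both sets of samples were separate. Cdc25a was at 32.0, 35.4 and 32.7 in Cre-only and 47.6, 39.8 and 41.2 in c-k/o cells (0.36 ± 0.10, adjusted p = 0.0859), and 5 of 21 alternatives called it higher. Cdc6, which was apart at rest, overlapped between genotypes at 3 h (-0.11 ± 0.24, adjusted p = 0.824). The fit without the 2 libraries that stood apart called Pole2, Uhrf1 and Mcm6 lower and Cdc25a higher, with 6.80% of all genes called. Without 3-h c-k/o replicate 3, 2 genes were called lower (Pole2 and Pole), with 4.71% of all genes called.

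No gene passed the test of a different response to activation between genotypes (0 of 46, with 2 at an unadjusted p under 0.05, Pole2 and Cdc6; 0.0813% of all genes tested passed, 0.0665% higher and 0.0148% lower; edgeR).

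Genes of dividing cells were measured beside these, as 20 G2-M and mitosis genes. Their summed level was 255 to 318 normalized CPM in resting Cre-only against 176 to 202 in resting c-k/o samples, and 184 to 219 against 112 to 140 after 3 h. Of these 20 genes, all 20 were fitted below 0 at rest and 3 passed (Top2a, Kif11 and Bub1), and 19 were fitted below 0 after 3 h and 7 passed (these 3 with Mki67, Cenpe, Nusap1 and Ccnb2). Of all 13538 genes tested, 6009 were fitted below 0 at rest and 6623 after 3 h, and 0.761% and 1.3% passed as lower. The part of the 20 mitosis genes in the genotype values of the replication genes was not tested. Marker genes of other cell types were summed as well, and which cells their RNA came from was not tested. Erythroid genes summed to 56.9 to 369 in resting Cre-only and 335 to 552 in resting c-k/o samples, and to 20.0 to 194 and 155 to 270 after 3 h. The sum of myeloid genes was 385 to 461 in resting and 43.6 to 52.3 in activated Cre-only samples, and 359 to 692 and 48.5 to 92.5 in c-k/o samples, and its part in the activation values was not tested. NK cell genes summed to 9.63 to 14.7 at rest and to 2.24 to 6.43 after 3 h over both genotypes. Of 6 NK cell genes tested, 3 fell in each genotype, where 36.4% of all genes fell in Cre-only and 36.6% in c-k/o cells. T cell genes summed to 36.4 to 59.5 at rest and to 154 to 193 after 3 h over both genotypes. Of 11 such genes 6 were tested, and Il7r, Trac, Cd5 and Lck rose and Cd4 fell in both genotypes, while Cd3e stayed at 0.410 or below; the part of these genes in the activation values was not tested.

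Of 37 other replication genes tested (ORC subunits, further polymerase subunits, CMG and fork factors), 19 rose and 6 fell in Cre-only cells and 18 rose and 6 fell in c-k/o cells. Among all genes tested, 75% passed in Cre-only cells (38.6% higher, 36.4% lower) and 74.3% in c-k/o cells (37.7% higher, 36.6% lower). Remaining subunits of polymerases δ and ε were divided too: Pold4 fell (-2.33 and -2.11 in log2), and Pole3 (1.40 and 1.32) and Pole4 (1.26 and 1.35) rose, so that in polymerase ε all 4 subunits rose. Between genotypes, Dna2 was lower at rest (-0.74, adjusted p = 0.0454), and after 3 h Orc5 was higher (0.55, adjusted p = 0.0352) and Wdhd1 lower (-0.43, adjusted p = 0.0388). These were the only genotype calls among the 37 genes, where 1.49% of all genes tested passed at rest and 2.77% after 3 h.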

How the data were processed

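RNA from 12 samples was sequenced by the authors as paired ends from stranded poly(A)-selected libraries, aligned to mouse genome mm9 (NCBIM37) with TopHat2 2.0.11 and Ensembl annotation, and counted on genes with featureCounts. The deposited values are raw read counts per gene; strand setting and handling of multiply aligned reads are not given in the sources used here, and no ERCC spike-in rows were among the 37991 used. Of these, 37205 had a symbol in the GENCODE annotation of the same build. Besides the overlaps named above, exons of Lig1 (247 bases), Chaf1a (144), Timeless (113) and Pole (78) overlap genes on the other strand.

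Python 3.11.15 and R 4.3.3 were used. Genes were kept by filterByExpr of edgeR 4.0.16 (minimum count 10), scaled by TMM, and fitted with edgeR's robust quasi-likelihood model, 1 term for each of the 4 groups over all 12 samples. Adjusted p-values are from its F test with Benjamini-Hochberg adjustment over 13538 genes, threshold 0.05; SE is that of the log2 fold change. The models were tested on simulated data. The authors' own comparison used DESeq2 with RUV-seq factors, whose number and control genes are not given in the sources used here. Alternatives were DESeq2 size factors, no filter, at least 10 counts in every sample, DESeq2 1.42.0, 1 RUVs factor (estimated over the tested genes from deviations of replicates) in edgeR and in DESeq2, 2 replicate blocks, only the groups compared, and each sample left out; leaving out 2 libraries together was chosen after seeing the data.

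The members and lists were chosen with earlier results of these data known. Values are given for genes called between genotypes, the 5 largest changes in each direction on activation, the most abundant gene of each role, MCM2-7, Pcna, Cdc6 and the E2F genes. Other genes given with values (Mcm10, Uhrf1, Cdc25a, Pole, Dbf4 and those named for lost calls) were named after their values were seen. Replicates are called biological in the paper; p-values measure the spread between them. In Cre-only cells, resting and 3-h samples of 1 number deviated together (correlations across genes of 0.275, 0.176 and 0.144), so these numbers were taken to pair them. Those of c-k/o samples (-0.254, -0.264 and 0.254) and across genotypes (-0.066 to 0.068) did not. The highest c-k/o correlations joined different numbers: resting 2 with 3-h 1 (0.477, the 2 libraries that stood apart), resting 3 with 3-h 2 (0.309) and resting 1 with 3-h 3 (0.268). Whether these numbers are crossed cannot be told from the labels. With the block in Cre-only cells, Mcm7 and Rfc4 lost their call on activation (adjusted p = 0.0593 and 0.0611, edgeR), and 17 genes rose and 15 fell, where 71.9% of all genes passed.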

Additional observations from a re-analysis of the deposited data

How the results depend on the processing

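The activation counts kept within 1.5 times of those reported under DESeq2 size factors, no filter, at least 10 counts in every sample, the DESeq2 Wald test, both replicate blocks and the fits of only the groups compared. With 1 RUVs factor, 11 (edgeR) and 9 (DESeq2) genes rose in Cre-only and 12 and 10 in c-k/o cells, with medians of -0.18 and -0.29, and of -0.0598 and -0.13; the factor separated rest from 3 h, and the cause of the shift was not tested. With this factor in edgeR and DESeq2, log2 changes reversed for Mcm7 (-0.0128 and -0.12) and Rfc4 (-0.12 and -0.24) in Cre-only cells and for Gins2 (-0.14 and -0.21), Rpa2 (-0.26 and -0.32) and Tipin (-0.24 and -0.31) in c-k/o cells; Pola1 was at 0.0271 in edgeR (c-k/o) and Dbf4 at -0.00518 in DESeq2 (Cre-only). Both fits with it also called lower genes that had not passed: Rpa2 (-0.34 and -0.44, from 0.33), Tipin (-0.41 and -0.52, from 0.32), E2f1 and Rpa3 in Cre-only cells, and Gins1, Rfc3 and Rpa3 in c-k/o cells. Requiring 10 counts in every sample moved the activation medians to 0.0361 and 0.16. 

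Genotype counts at rest, with the share of all genes called in brackets, were 3 lower with 10 counts in every sample (1.3%), 2 with DESeq2 (2.79%), 7 lower and 1 higher with 1 RUVs factor in edgeR (3.87%), 9 lower with it in DESeq2 (4.51%), 1 with only the groups compared (1.68%) and 9 without the 2 libraries that stood apart (4.4%). After 3 h they were 1 higher and 2 lower with 10 counts in every sample (3.24%) and with DESeq2 (5.22%), 1 higher and 4 lower with 1 RUVs factor in edgeR (7.65%), 1 higher and 3 lower with it in DESeq2 (9.12%), and 1 higher and 3 lower without those 2 libraries (6.8%); the difference in response had 1 gene (Pole2) lower with 1 RUVs factor in DESeq2 (1.85%). The causes were not tested.

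With each sample left out in turn, 17 to 20 genes rose and 14 to 15 fell in Cre-only cells, 19 to 23 rose and 9 to 12 fell in c-k/o cells, 0 to 4 were lower in c-k/o cells at rest and 1 to 2 after 3 h, and 0 were called higher in either or in the difference in response. Of all genes, 70.6% to 79.3% passed on activation in Cre-only and 69.3% to 74.7% in c-k/o cells in these fits. Between genotypes 0.62% to 2.86% passed at rest and 1.34% to 4.71% after 3 h. Calls on activation were lost in at least 1 such fit for Mcm7, Rfc3 and Rfc4 in Cre-only cells and for Cdc7, Gins2, Pola1, Prim2, Rfc5, Rpa2 and Tipin in c-k/o cells. The replicate block over all samples gave 19 higher and 15 lower in Cre-only, 21 higher and 12 lower in c-k/o cells, 0 called at rest and 1 lower after 3 h. All genes passed at 74.1%, 73.1%, 1.03% and 2.03% in these 4 comparisons. The block within each genotype gave 19 higher and 11 lower in c-k/o cells (70.9% of all genes passed), where samples of the same number did not all deviate together. Only in Cre-only cells did every sample correlate best with its own number.

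Counts of 19 to 90 for Cdc6 and 28 to 80 for Mcm10 limit the precision of both, and 3 samples a group limit the smaller differences between genotypes. Levels are relative to all counted RNA of a sample.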

Other observations

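Of 15 other genes of the E2F, DP and RB families and the DREAM complex, 6 rose and 5 fell in Cre-only cells and 7 rose and 5 fell in c-k/o cells (edgeR, adjusted p under 0.05), a share near the 75% and 74.3% of all genes tested that passed. E2f6, a repressor, rose by 2.35 and 2.22 in log2, and E2f4 and E2f5, which act with RB family proteins in quiescent cells, rose by 1.04 and 1.07 and by 0.99 and 1.08. The 2 DP partners moved in opposite directions: Tfdp1 had 2.08 and 2.02, and Tfdp2 -1.54 and -1.91. All 3 RB family genes fell, with -1.88 and -2.11 for Rbl2, -1.61 and -1.80 for Rbl1 and -0.57 and -0.79 for Rb1. E2f8, an atypical repressor, had -0.92 and -1.02. None of the 15 passed between genotypes at rest or after 3 h (0 at an adjusted p under 0.05, edgeR). At an unadjusted p under 0.05 were 3 at rest and 2 after 3 h, against 1496 and 2194 of all 13538 genes tested.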
